A study of Mus musculus with 6 samples.

Results

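Interferon-stimulated genes, the sensors that lead to interferon and the first steps of interferon signalling were examined in LPS-stimulated BV2 cells as a list of 39 mouse genes. The list held 27 effectors, 6 sensors or sensor adaptors, and 6 genes of a ligand (interferon-β), interferon receptors and STAT. Its members were listed by gene name. The arrays carried at least 1 probe for 36 of the 39, out of 23462 genes matched to a probe in all. Of those 36, 33 could be tested, among 17062 tested genes. Mx1, Mx2 and Rnf213 had no matched probe, and the probes of Ifit3, Trim30a and Ifih1 were not well above background on any array.

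The RNA came from BV2 cells, an immortalized microglial line of the mouse, on 6 one-colour Agilent arrays. The 3 control samples were labelled as lacking PGC-1α overexpression and the other 3 as overexpressing PGC-1α, a transcriptional coactivator of mitochondrial genes. All 6 were treated with LPS, a bacterial membrane component, so no sample shows the interferon genes without LPS. In the cell culture methods of the paper the dose was 500 ng/ml for 6 h, a control lentivirus was used beside the lentivirus that carried the PGC-1α coding sequence, and cells were selected with puromycin 72 h after transfection, but those methods do not name the arrays. No label says that the 3 samples of a group were separate cultures, so p-values measure only the spread between these samples, which may be technical.

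As background, cells detect viral or misplaced nucleic acids with RNA sensors of the RIG-I family and with DNA sensors such as cGAS, and in macrophages and microglia LPS reaches the same interferon-β gene through Toll-like receptor 4. Secreted interferon binds its receptor and, through JAK kinases, activates STAT proteins, among them STAT2, which enter the nucleus with IRF9 and bind an interferon-stimulated response element (ISRE) in front of target genes. The products of these genes degrade viral RNA, block translation, trap particles or, like Usp18, damp the receptor.

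All levels below are log2 signals relative to the 75th percentile of the array, differences are overexpression minus control, and a difference passed the test at an adjusted p below 0.05 by limma across all genes tested. In control the 75th percentile of the intensity ranged from 1617 to 1893, and with overexpression from 856 to 1268. Scaled this way, the median of all genes lay at 0.23, and after quantile normalization at 0.03, so each difference is given with its value under quantile normalization where the call or sign depends on it. The median difference also varied with brightness, from 0.58 for genes whose mean unscaled log2 signal was below 6 to -0.11 between 8 and 10 and 0.39 above 12. These 3 bins held 4, 9 and 7 of the members, and the part of brightness in the members' differences was not tested. Ppargc1a, the gene of PGC-1α, had 2 dim probes, neither tested, and which stretch of the transcript they read was not examined here. One lay at -6.21, -6.37 and -7.71 in control and at -5.70, -5.28 and -5.90 in overexpression, above background on 2 of 3 arrays of each group, and the other differed by 0.26. Of 12 microglia and macrophage markers 10 were tested, while Cx3cr1 and P2ry12 were not above background, and their summed level was 84.7 to 87.9 in control and 121 to 145 in overexpression. The corresponding sums were 12.4 to 13.4 against 21.1 to 25.0 for 3 fibroblast markers and 22.0 to 27.9 against 35.2 to 48.4 for the 3 tested neuron markers, and at or below 1.23 on every array for the astrocyte, oligodendrocyte, endothelial and lymphocyte lists. These sums follow the scaling. Of the microglia markers 5 were higher and 1, Tmem119, was lower (-2.68), and after quantile normalization those 5 did not pass and the median of the list was 0.04 in place of 0.31. The medians of the fibroblast and neuron markers moved from 0.77 to 0.25 and from 0.71 to 0.11, and the fibroblast marker Pdgfra was lower (-1.63), and it and Tmem119 are named here after their values were seen. The part of these markers in the results was not tested.

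The ISRE is the sequence feature by which many of these genes are known, so it was looked for in RefSeq promoters (GRCm38.p6, 250 bases before to 50 after each annotated start), which held 31 of the 39 members. Mx1, Mx2, Oas2, Dhx58, Zbp1, Parp9, Parp14 and Usp18 had no entry. The core of GAAA, any 2 bases and GAAA again, on either strand and with overlapping matches allowed, occurred in 12 of the 31 (38.7%) and in 3.99% of 27025 genes. The following 80-base stretches, each before the annotated start, are those of the 7 tested members whose ISRE matches all lie before it, with the matches in capitals, written 5′ to 3′ on the strand of the gene (Isg15 chr4:156200846-156200925, minus strand; Ifit1 chr19:34640759-34640838, plus strand; Oas1a chr5:120907526-120907605, minus strand; Oas3 chr5:120777690-120777769, minus strand; Bst2 chr8:71537555-71537634, minus strand; Rsad2 chr12:26456528-26456607, minus strand; Stat2 chr10:128270248-128270327, plus strand).
Isg15: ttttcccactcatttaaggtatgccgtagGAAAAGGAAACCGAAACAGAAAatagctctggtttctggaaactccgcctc
Ifit1: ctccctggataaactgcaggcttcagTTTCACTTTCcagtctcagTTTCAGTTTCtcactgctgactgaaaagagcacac
Oas1a: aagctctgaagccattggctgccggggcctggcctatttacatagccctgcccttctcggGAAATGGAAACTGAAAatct
Oas3: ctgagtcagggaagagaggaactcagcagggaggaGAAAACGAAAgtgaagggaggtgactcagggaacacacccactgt
Bst2: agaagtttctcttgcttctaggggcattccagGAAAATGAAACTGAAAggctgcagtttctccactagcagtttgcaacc
Rsad2: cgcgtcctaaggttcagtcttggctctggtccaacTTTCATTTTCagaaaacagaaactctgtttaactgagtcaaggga
Stat2: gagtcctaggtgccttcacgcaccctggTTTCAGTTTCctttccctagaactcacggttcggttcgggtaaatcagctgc
Isg15 carries 3 overlapping matches that form 1 run, Oas1a and Bst2 each carry 2 overlapping ones, and Ifit1 has 2 separate ones on the opposite strand. A match of letters describes the window only and is no evidence of binding.

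Of the 33 tested members, 7 were higher and 12 lower with PGC-1α overexpression, and 14 did not pass the test. The 7 include Oas2 and Stat2, each with another probe that was lower and passed. That share (57.6%) is near the one of all genes, of which 56.5% passed, 36.9% higher and 19.6% lower. After quantile normalization 5 members were higher and 14 lower, where 42.5% of all genes passed, 21.7% higher and 20.9% lower, and 17 of the 19 members that passed did so in the same direction under both scalings. The median difference of the members was -0.09, which is 0.32 below that of all genes, and it was 0.37 below after quantile normalization. At least 2-fold differences past the threshold were seen for 4 lower members (Cmpk2, Parp14, Usp18 and Ifit2) and 1 higher member (Zbp1), against 6.72% of all genes higher and 7.53% lower by that measure. With normexp background correction, whose offset of 50 draws dim signals together, and the 75th percentile all 5 still passed, but of these only Usp18 (-1.05) stayed at 2-fold, with Cmpk2 at -0.82, Ifit2 at -0.65, Parp14 at -0.64 and Zbp1 at 0.93. Among the 32 members with a value on every array the groups did not overlap in 24, against 65.5% of all such genes. Each of the 19 differences had the same sign on slide 1, with 2 arrays of each group, and on slide 2, with 1 of each. The groups did not overlap in any of the 19, so this sign was fixed beforehand and is no separate agreement of the slides. Before any scaling the overexpression arrays were dimmer as a whole, and the signals of every lower member, as of 100% of all lower genes with a value on every array, lay below control. Of the 7 higher members Isg15 and Zbp1 lay above control without scaling and the other 5 overlapped, where 17.8% of all higher genes lay above. In RNA of whole cultures, less RNA per cell and fewer cells that express a gene cannot be told apart.

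**Figure D1:**
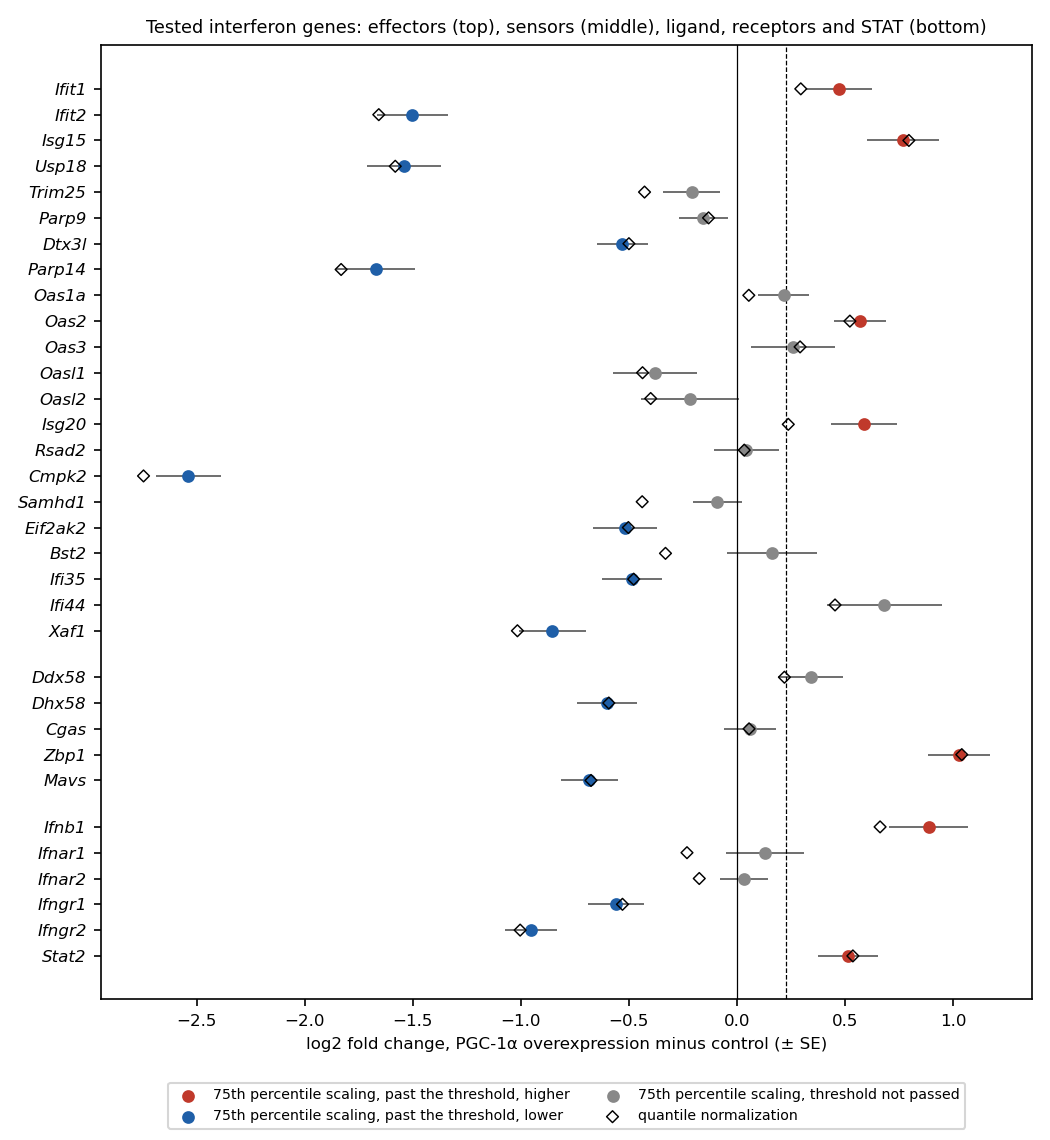
Difference of each of the 33 tested members (x axis, log2, overexpression minus control, bars ± SE of the limma fit, 3 arrays per group), ordered by role on the y axis. Filled points are scaled to the 75th percentile and coloured by call, open diamonds are quantile normalized, the dashed line is the median of all genes at 0.23, and Cmpk2 at -2.54 and Zbp1 at 1.03 are the extremes; Bst2, Ifnar1 and Ifnar2 change sign between the scalings.

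The IFIT proteins bind RNA that lacks the cap marks of the cell and hold it back from translation, and the 2 tested members of the family moved apart. Ifit2 stood at -3.36, -2.92 and -3.08 in control and at -4.56, -4.84 and -4.46 in overexpression. Every overexpression array was below every control array, and Ifit2 fell by 1.502 ± 0.16 (SE) on the log2 scale, 2.83-fold (limma adjusted p = 0.000379). Ifit1 was measured at -4.88, -4.52 and -4.55 in control and at -4.22, -4.01 and -4.32 in overexpression. It was higher by 0.47 ± 0.15 (limma adjusted p = 0.0284), but by 0.29 after quantile normalization, where it did not pass (adjusted p = 0.11). Its unscaled signals of 54.7 to 80.6 in control and 53.1 to 63.6 in overexpression overlapped.

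Isg15 is a ubiquitin-like protein that is attached to other proteins, and Usp18 is the protease that removes it and also shuts off the type I interferon receptor. The pair went in opposite directions. Isg15 lay at -1.11, -1.21 and -1.33 in control and at -0.55, -0.11 and -0.68 in overexpression. It rose by 0.77 ± 0.17, 1.70-fold (limma adjusted p = 0.00644), without overlap of the groups. Its unscaled signals lay much closer, at 704 to 754 in control and 789 to 790 in overexpression, so the fold depends on the scaling. Usp18 lay at -1.48, -1.63 and -1.43 in control and at -3.15, -3.30 and -2.71 in overexpression. It fell by 1.54 ± 0.17, 2.91-fold (limma adjusted p = 0.000436), with the third overexpression array the least reduced. Trim25, a ubiquitin ligase that acts on RIG-I, differed by -0.21 and did not pass (adjusted p = 0.199), while after quantile normalization it was lower by 0.43 and passed (limma adjusted p = 0.0432).

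Parp9, Parp14 and Dtx3l belong to a group of ADP-ribosylating enzymes and a partner ubiquitin ligase, and 2 of these 3 genes fell. Parp14 stood at -3.21, -2.86 and -3.06 in control and at -4.90, -4.90 and -4.35 in overexpression, so that no overexpression array reached the control range. The change was -1.67 ± 0.18, 3.19-fold (limma adjusted p = 0.000407). Its second probe fell by 0.46 (limma adjusted p = 0.0389 over probes). Dtx3l, which pairs with Parp9, fell by 0.53 ± 0.12 (limma adjusted p = 0.00711). Parp9 was -0.16 ± 0.11 by its brightest probe (adjusted p = 0.268) and -0.49 by the other (limma adjusted p = 0.0113 over probes).

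The oligoadenylate synthetases make the short adenylate chains that switch on RNase L. Of 5 tested members of the family 4 did not pass, and the other, Oas2, passed in a direction that depended on the probe. Among all genes 56.5% passed. Oas2 lay at -2.63, -2.62 and -2.81 in control and at -2.20, -2.07 and -2.09 in overexpression by its brightest probe, a rise of 0.57 ± 0.12 (limma adjusted p = 0.00575). The second Oas2 probe lay at -3.66, -3.76 and -4.17 in control and at -4.89, -4.999 and -5.17 in overexpression, a fall of 1.15 ± 0.17 (limma adjusted p = 0.00129 over probes). Both probes separated the groups completely and in opposite directions, and their mean was -0.29 (adjusted p = 0.0876), so no direction can be given for Oas2. Oas1a differed by 0.22 (adjusted p = 0.148), Oas3 by 0.26 (adjusted p = 0.28), Oasl1 by -0.38 (adjusted p = 0.123) and Oasl2 by -0.22 (adjusted p = 0.435). The second probe of Oasl1 was lower by 1.03 (limma adjusted p = 0.00124 over probes). Oas1a is one of several near-identical tandem copies, and how far its probe also reads the others was not examined here.

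Among enzymes that act on RNA and nucleotides, Cmpk2 had the largest difference of the tested members at this scaling. Cmpk2 is a mitochondrial nucleotide kinase. It stood at -3.24, -3.37 and -3.70 in control and at -6.01, -6.05 and -5.87 in overexpression, where it was well above background on 2 of 3 arrays, with signals of 12.95 to 21.7 before scaling against 146 to 171 in control. It thus entered the test through the control group alone. It fell by 2.54 ± 0.15, 5.81-fold (limma adjusted p = 2.9e-05), and the difference was -2.745 after quantile normalization. With normexp it was -0.82 after the 75th percentile, closer to 0 than Usp18 at -1.05 and Ifngr2 at -0.96, and -1.18 after quantile normalization, so its fold depends on the background correction. Eif2ak2, the kinase PKR that halts translation on double-stranded RNA, fell by 0.52 ± 0.15 (limma adjusted p = 0.0182). Isg20, an RNA exonuclease, was higher by 0.59 ± 0.15 (limma adjusted p = 0.0124), but by 0.24 after quantile normalization (adjusted p = 0.208), and its unscaled signals overlapped. Samhd1, which depletes nucleotides, differed by -0.09 (adjusted p = 0.51) and by -0.44 after quantile normalization, where it passed (limma adjusted p = 0.0236).

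Rsad2 encodes viperin, which makes a chain-terminating nucleotide, and its 2 probes gave different readings. The brightest lay at 0.29, 0.08 and 0.13 in control and at -0.04, 0.41 and 0.26 in overexpression. These groups overlapped, with a difference of 0.04 ± 0.15 (adjusted p = 0.825). The second lay at 0.58, 0.38 and 0.44 in control and at -0.92, -1.13 and -0.80 in overexpression. It was lower on every overexpression array, by 1.42 ± 0.14 (limma adjusted p = 0.000247 over probes).

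Of the remaining effectors, Xaf1, a promoter of apoptosis, fell by 0.85 ± 0.15 (limma adjusted p = 0.00303) and Ifi35 by 0.49 ± 0.14 (limma adjusted p = 0.0178). With normexp and the 75th percentile Xaf1 was -0.24 and did not pass (adjusted p = 0.191). The second Ifi35 probe was also lower, by 0.92. Bst2, or tetherin, which holds budding particles on the cell surface, differed by 0.16 ± 0.21 (adjusted p = 0.531), and the sign turned to -0.33 after quantile normalization. Ifi44 differed by 0.68 ± 0.27 and missed the threshold (adjusted p = 0.057). Over the 22 tested effectors 4 were higher and 8 lower, and after quantile normalization 2 were higher and 10 lower. The 4 include Oas2, for which no direction can be given. Among all genes 36.9% were higher and 19.6% lower, and after quantile normalization 21.7% and 20.9%. The median of the effectors was -0.18, which is 0.41 below that of all genes and 0.45 below after quantile normalization.

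**Figure D2:**
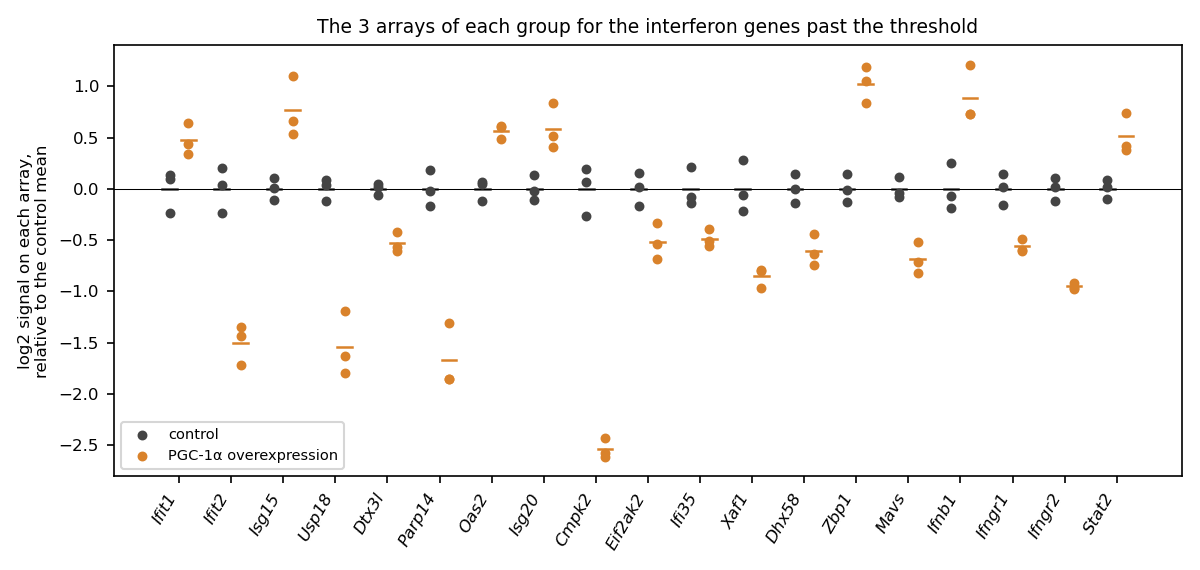
Log2 signal on each array (y axis) relative to the control mean for the 19 members that passed the test (x axis), with 3 control points in grey and 3 overexpression points in orange per gene and lines at the group means. No overexpression point lies within the control range of its gene; Ifit1 and Isg20 did not pass after quantile normalization.

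Among the sensors, 1 of 5 tested genes was higher, 2 were lower and 2 did not pass. The shares of all genes were 36.9% higher and 19.6% lower. Zbp1 recognizes nucleic acid in the left-handed Z form and can start necroptosis, and it had the largest upward difference of the members. It lay at -1.36, -1.09 and -1.24 in control and at -0.18, -0.04 and -0.39 in overexpression. It rose by 1.03 ± 0.14, 2.04-fold (limma adjusted p = 0.00104), its second probe by 1.04, and its unscaled signals were 631 to 799 in control and 832 to 1022 in overexpression. Every reading of Zbp1 was thus above the control range.

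Mavs and Dhx58 fell. Mavs is the mitochondrial adaptor through which RIG-I and MDA5 signal, and it lay at 0.27, 0.24 and 0.44 in control and at -0.39, -0.50 and -0.20 in overexpression. The groups did not overlap, and the difference was -0.68 ± 0.13 (limma adjusted p = 0.00403). Dhx58, or LGP2, regulates RIG-I and MDA5, and it stood at 0.35, 0.06 and 0.20 in control and at -0.43, -0.53 and -0.23 in overexpression. It fell by 0.60 ± 0.14 (limma adjusted p = 0.0077). Ddx58, or RIG-I, differed by 0.34 ± 0.15 by its brightest probe (adjusted p = 0.0829) and by -0.37 and -0.23 by 2 others, none of which passed. Cgas, the DNA sensor that makes cyclic GMP-AMP, was 0.06 ± 0.12 by its brightest probe (adjusted p = 0.692). Its second probe lay at -0.65, -0.84 and -0.80 in control and at -1.82, -1.92 and -1.81 in overexpression. That probe was lower without overlap, by 1.09 ± 0.12 (limma adjusted p = 0.000438 over probes).

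The ligand, the chains of its type I receptor and those of the interferon-γ receptor were called differently. Ifnb1 encodes interferon-β, and its dim probe lay at -5.73, -5.41 and -5.84 in control and at -4.94, -4.45 and -4.94 in overexpression. It was higher by 0.89 ± 0.18, 1.85-fold (limma adjusted p = 0.00494), and by 0.66 after quantile normalization (limma adjusted p = 0.0118). With normexp and quantile normalization it was 0.22 and did not pass (adjusted p = 0.114). Its unscaled signals, 30.4 to 38.3 in control and 37.8 to 41.4 in overexpression, overlapped, and genes this dim had a median difference of 0.58 as a class.

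The receptor for interferon-γ, made of Ifngr1 and Ifngr2, was lower in both chains. Ifngr2 lay at 1.16, 1.08 and 0.94 in control and at 0.10, 0.14 and 0.08 in overexpression. The overexpression arrays lay close together and far below control, and the fall was 0.95 ± 0.12, 1.93-fold (limma adjusted p = 0.000703). Ifngr1 stood at -0.79, -0.91 and -1.09 in control and at -1.41, -1.52 and -1.53 in overexpression, a fall of 0.56 ± 0.13 (limma adjusted p = 0.00763). With normexp and the 75th percentile Ifngr1 was -0.34 and did not pass (adjusted p = 0.0656).

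The chains of the type I receptor did not pass by their brightest probes. Ifnar1 differed by 0.13 ± 0.18 (adjusted p = 0.558, with the value of control replicate 2 missing) and Ifnar2 by 0.03 ± 0.11 (adjusted p = 0.814), and both signs turned after quantile normalization, to -0.23 and -0.17. The other probes of both genes were lower. Those of Ifnar1 differed by -0.36 and -0.40, and the second passed (limma adjusted p = 0.0294 over probes). That of Ifnar2 lay at -2.74, -2.67 and -2.87 in control and at -4.39, -4.12 and -4.05 in overexpression, a fall of 1.43 ± 0.14 (limma adjusted p = 0.000255 over probes).

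Stat2, a subunit of the factor that binds the ISRE, again gave both directions. Its brightest probe lay at -1.08, -1.02 and -1.20 in control and at -0.68, -0.36 and -0.71 in overexpression, higher by 0.51 ± 0.14 (limma adjusted p = 0.0156). The other lay at -0.55, -0.80 and -0.82 in control and at -1.30, -1.55 and -1.07 in overexpression, lower by 0.58 ± 0.16 (limma adjusted p = 0.0171 over probes). Neither probe showed an overlap of the groups, so no direction can be given for Stat2 either.

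In all, 15 members had several tested probes. Their differences had both signs in 7 members, against 32% of all genes with several tested probes, and probes past the threshold in both directions were found in 2, Oas2 and Stat2, against 5.78%. The brightest probe was chosen over all 6 arrays, so the difference itself bears on the choice, and in control alone another probe was brighter in 3 of the 15, Rsad2, Ddx58 and Stat2. In 12 of the 15 members (80%) the brightest probe had a higher difference than the others, against 57.9% of all such genes. After quantile normalization these shares were 80% and 51.5%. They were not tested, and the genes were not matched by number of probes. With the mean of the tested probes of a gene in place of the brightest, 5 members were higher and 18 lower, where 35% of all genes were higher and 21.2% lower. Rsad2, Cgas, Ifnar1 and Ifnar2 were then lower and passed the test, by 0.69, 0.52, 0.38 and 0.70. Which transcripts the probes of a gene share was not examined here.

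**Figure D3:**
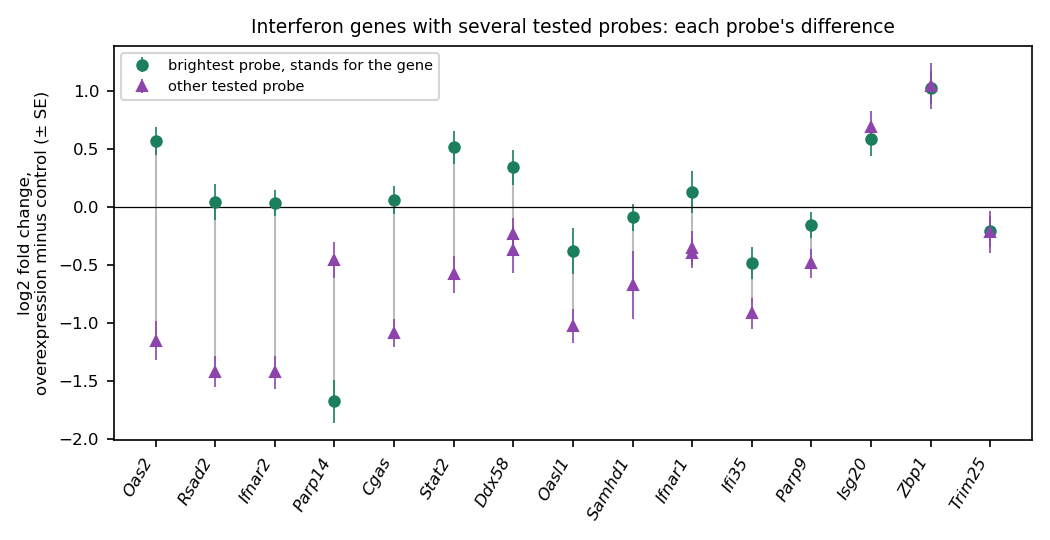
Difference of each tested probe (y axis, log2, overexpression minus control, ± SE of the limma fit over probes) for the 15 members with several tested probes (x axis), ordered by the distance between probes. Green circles are the brightest probe of the gene and purple triangles the others; the probes of Oas2 lie 1.72 apart and those of Zbp1 at nearly the same value.

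The promoters described above can be set beside these calls. Of the 5 higher members with a promoter entry 3 held the ISRE core (Isg15, Ifit1 and Stat2), of the 9 lower members 1 did (Eif2ak2), and of the 13 that did not pass 5 did (Bst2, Ddx58, Oas1a, Oas3 and Rsad2). Stat2 is counted here by its brightest probe, and counted as lower by its other probe it leaves 2 of 4 higher and 2 of 10 lower members with the core. Neither Cmpk2 nor Ifit2 had the letters in its window. These counts are a description with no test.

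Other interferon genes were summarized for context. Of 69 further interferon-stimulated genes 53 were tested, and 13 were higher (24.5%) and 15 lower (28.3%). In all 52.8% passed, near the 56.5% of all genes, of which 36.9% were higher and 19.6% lower. The median of the list was 0.03, which is 0.20 below that of all genes. After quantile normalization 6 were higher and 17 lower, against 21.7% and 20.9% of all genes. The 4 that fell most were Znfx1, an RNA helicase of antiviral defence (-2.40 ± 0.14), Lgals3bp, a secreted glycoprotein (-1.77 ± 0.15), Oas1c (-1.49 ± 0.15) and Slfn2 (-1.403 ± 0.18). Those with the largest upward difference were Trim12c (0.93 ± 0.14), Apol9a (0.81 ± 0.16), Sp110 (0.76 ± 0.15) and Apol9b (0.64 ± 0.21). After quantile normalization Sp110 and Apol9b did not pass, with 0.11 and 0.58. Apol9a and Apol9b are near-identical copies, so their probes may not be independent. Oas1c, Trim12c and Sp110 had other tested probes, and only the brightest is given here.

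Of 28 further genes of interferon signalling 26 were tested, and 2 were higher (7.69%) and 11 lower (42.3%). In all 50% passed, against 56.5% of all genes, of which 36.9% were higher and 19.6% lower. After quantile normalization 1 was higher and 11 lower, against 21.7% and 20.9% of all genes. The median of the list was -0.27, which is 0.50 below that of all genes and 0.35 below after quantile normalization. Rnf135, a ubiquitin ligase that activates RIG-I, fell by 1.404 ± 0.15 and Nlrc5, a regulator of MHC class I genes, by 1.03 ± 0.19. Nlrx1, a mitochondrial protein that binds Mavs, was higher by 0.82 ± 0.25. Ddx41, a helicase sensor of DNA, was higher by 0.45 ± 0.14. After quantile normalization Ddx41 was higher by 0.18 and did not pass (limma adjusted p = 0.309). Rnf135, Nlrc5, Nlrx1 and Ddx41 had other tested probes, and only the brightest is given here.

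Of 20 other ligands and receptor chains 15 were tested. Of these ligands 6 were higher and none lower, namely Ifnl3 (1.00 ± 0.27), Ifna7 (0.89 ± 0.28), Ifna9 (0.79 ± 0.23), Ifna11 (0.61 ± 0.17), Ifna5 (0.56 ± 0.17) and Ifnab (0.47 ± 0.15), against 36.9% of all genes higher. After quantile normalization Ifnl3 and Ifna9 passed, against 21.7% of all genes, and Ifna7 (0.64), Ifna5 (0.51), Ifnab (0.43) and Ifna11 (0.38) did not. Ifna11 was above background on 2 of 3 control arrays, so it entered the test through the overexpression group alone. Before any scaling the Ifnab signals of 232 to 255 in overexpression all lay below the 262 to 291 of control. The unscaled signals of Ifnl3, Ifna7, Ifna9, Ifna11 and Ifna5 overlapped. Ifna7 and Ifna11 were dim, with unscaled signals of 22.8 to 39.1 and 27.4 to 37.4, and genes this dim had a median difference of 0.58 as a class. Ifna1, Ifna2, Ifna12, Ifna13, Ifna14 and Ifna16 ranged from 0.07 to 0.79 and did not pass, and the lowest of them, Ifna2, turned to -0.16 after quantile normalization. Ifnk was not well above background on any overexpression array and did not pass (adjusted p = 0.0781). Ifnlr1 at -0.39 and Il10rb at -0.21, chains of the interferon-λ receptor, did not pass either. The Ifna genes are near-identical copies, and their probes were not checked for reading one another.

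**Figure D4:**
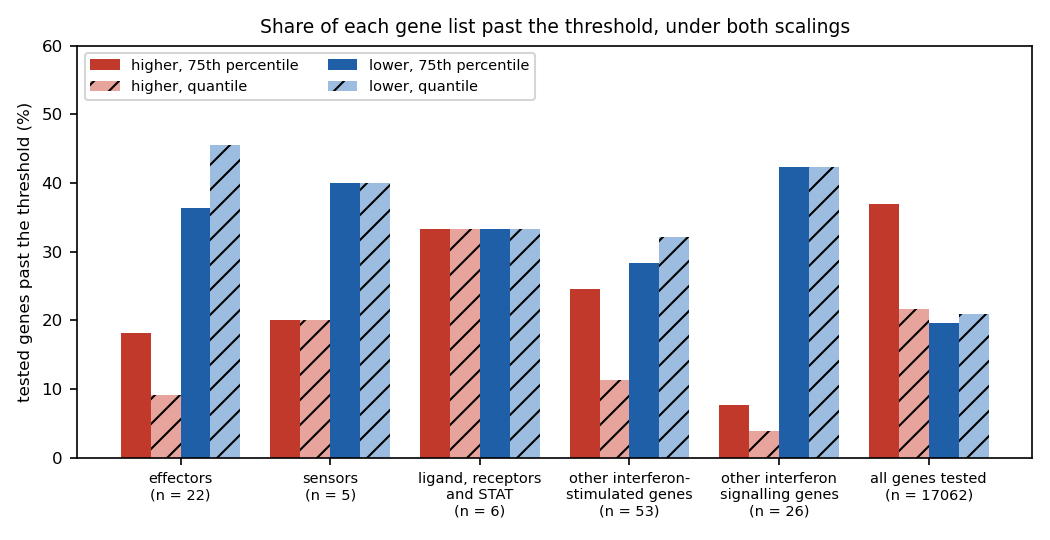
Share of the tested genes of each list that passed the limma test (y axis, percent), by direction and scaling, with the number tested under each list (x axis). Effectors were lower in 8 of 22 and higher in 4 of 22, whereas 19.6% of all genes were lower and 36.9% higher. After quantile normalization effectors were lower in 10 of 22 and higher in 2 of 22, and the shares of all genes in both directions were nearly equal.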

How the data were processed

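RNA of 6 BV2 samples was hybridized to Agilent mouse expression arrays, 1 sample on each, on 2 slides. Cy3 is the dye in the labels and Cy5 in their labelling text, and the scanner files hold the green channel. The intensity values deposited by the authors came from Agilent Feature Extraction 11.5.1.1, background-subtracted and with no scaling across arrays. A second deposited table holds log2 values that the authors normalized in GeneSpring, and it served as an alternative.

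Control spots and outlier spots were left out, log2 was taken, the 75th percentile of each array was subtracted and spots of a probe were averaged. Accessions gave a RefSeq gene symbol for 33767 of 56605 probes (59.7%). Testing required a value on 2 or more arrays per group and signal well above background throughout 1 group (3 arrays), and the brightest tested probe stood for each gene. The two-sided comparison used limma 3.58.1 (lmFit, eBayes) under R 4.3.3, and p-values were adjusted by the Benjamini-Hochberg method over 17062 genes (or over all tested probes, where stated), with a threshold of 0.05. Only the limma step was tested on simulated data, with values already scaled and filtered and far fewer genes changed than passed here. Scaling, filtering and the choice of probe were not tested in that way. Promoters were searched with Python 3.11.15.

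Every member is named. Of the other lists, the genes named are those with the largest difference that passed the test without overlap of the groups, 4 in each direction for interferon-stimulated and 2 for signalling genes, and all tested ligands. The members and lists were chosen with earlier results of these data known. Correlations of the deviations of same-numbered samples from their group means were -0.16, 0.07 and 0.60 for replicates 1, 2 and 3 across genes. Between samples of unlike number they ranged from -0.51 to 0.50. The numbers were not taken as pairs. Both replicate 3 samples were on slide 2, and slide was a block only in an alternative. Alternatives were other scalings, normexp background correction with an offset of 50, other filters, the mean over each gene's probes, slide or replicate as a block, a variance trend, array weights, the authors' log2 values, a 2-fold threshold and each array left out. The number of arrays limits the precision.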

Additional observations from a re-analysis of the deposited data

Results flagged for a closer look

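Among probes that could not be tested, 2 were above background with PGC-1α overexpression and on none of the control arrays. The Ifng probe was well above background on 1 of 3 overexpression arrays, with signals of 11.7, 4.63 and 13.1 against 6.08, 5.32 and 12.5 in control. A second Ifi205 probe was above background on 2 of 3 overexpression arrays, with signals of 14.3, 11.3 and 20.8 against 10.6, 17.1 and 24.1 in control. The signals of the groups overlapped for both probes.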

How the results depend on the processing

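Apart from the 2-fold threshold, 10 of the 19 members that passed kept direction and call under every tested alternative that gave them a value. Of the 19, 17 reversed under none. The exceptions in direction were Oas2 and Stat2. Alternatives that lost a call on a scale or background choice concerned Ifit1, Isg20, Xaf1, Ifngr1 and Ifnb1, and arrays left out cost the calls of Ifit1, Ifi35, Eif2ak2 and Stat2. With each array left out in turn, members higher ranged from 5 to 8 and members lower from 10 to 14, genes past the threshold from 7409 to 9905, other interferon-stimulated genes higher from 7 to 12 and lower from 13 to 16, and other signalling genes higher from 0 to 3 and lower from 7 to 11. The median relative to all genes then ranged from -0.46 to -0.32 for effectors, -0.20 to -0.14 for sensors and -0.42 to -0.14 for ligand, receptors and STAT. The libraries whose omission moved these counts by over 1.5 times were control replicate 3 (7 other interferon-stimulated genes higher, 0 signalling genes higher), PGC-1α overexpression replicate 1 (8 and 1), control replicate 1 (1 signalling gene higher, 7 lower) and control replicate 2 (1 higher). Ifnar1 reversed to -0.26 without control replicate 1 and -0.45 without control replicate 3, Rsad2 to -0.0035 without control replicate 2, and without PGC-1α overexpression replicate 2 Rsad2 reversed to -0.057, Bst2 to -0.064, Cgas to -0.0026 and Stat2 to -0.46. Another probe was then the brightest for Ifnar1 and Stat2. The full ranges were -0.057 to 0.17 for Rsad2, -0.064 to 0.33 for Bst2, -0.0026 to 0.098 for Cgas, -0.45 to 0.23 for Ifnar1 and -0.46 to 0.58 for Stat2. Quantile normalization reversed Bst2 (-0.33), Ifnar1 (-0.23) and Ifnar2 (-0.17) and left 6 other interferon-stimulated and 1 signalling gene higher, with the median of sensors at 0.021. The array median reversed Rsad2 (-0.068), Cgas (-0.051), Ifnar1 (-0.020) and Ifnar2 (-0.077), with 1 signalling gene higher. Normexp with the 75th percentile reversed Oasl2 (0.10) and Rsad2 (-0.019), with 5 signalling genes higher. Normexp with quantile normalization reversed Oas1a (-0.0017), Rsad2 (-0.020), Bst2 (-0.40), Ifnar1 (-0.33) and Ifnar2 (-0.16), with 4 members, 6 other interferon-stimulated and 1 signalling gene higher, and medians of 0.034 for sensors and -0.27 for ligand, receptors and STAT. Only probes above background on all arrays gave Ifnar1 at -0.36 by another probe and a median of -0.38 for ligand, receptors and STAT. No filter on background left 0 signalling genes higher by limma. The mean of the probes reversed Oas2 (-0.29), Rsad2 (-0.69), Ddx58 (-0.088), Cgas (-0.52), Ifnar1 (-0.38), Ifnar2 (-0.70) and Stat2 (-0.034), with 4 signalling genes higher and medians of -0.49 for effectors, -0.70 for sensors and -0.65 for ligand, receptors and STAT. Array weights reversed Rsad2 (-0.089), Bst2 (-0.072) and Cgas (-0.010). Signalling genes higher numbered 6 with array weights, 6 with the slide as a block and 5 with a variance trend. The authors' log2 values reversed Bst2 (-0.35), Ifnar1 (-0.40) and Ifnar2 (-0.19), with 5 other interferon-stimulated and 1 signalling gene higher and medians of 0.014 for sensors and -0.33 for ligand, receptors and STAT. At a 2-fold threshold 1 member was higher and 4 lower, 2430 genes passed, and 0 other interferon-stimulated genes were higher, 7 lower, 0 signalling genes higher and 2 lower. On slide 1 alone Ifnar1 was -0.46 by another probe, 1 signalling gene was higher and the median of ligand, receptors and STAT was -0.47, and on slide 2, with no test, the median of effectors was -0.27. The cause of these changes was not tested, also where another probe stood for the gene.

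With the replicate number as a block, 9 members were higher and 12 lower, 10561 genes passed, and 5 signalling genes were higher. Ifi44 and Ddx58 then passed, and no call of a member was lost. Gene names from the files could not be tried as an alternative to accessions, since the scanner tables used here hold no such column. Dim probes, among them Ifnb1, Ifi44 and Ifit1, are limited by the signal over background.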
